A study of Mus musculus with 156 samples.

Results

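Liver and brain of the same 10 mice were compared in 20 of the 156 RNA sequencing libraries of the series, and the members were chosen by label as the liver and brain libraries that carry the codes of the mice aged 2 months. The study followed host tissues and gut microbes of ageing mice. All 10 animals were male C57BL/6J/Ukj mice of 2 months, with no treatment in the labels, and each gave 1 liver library (n = 10) and 1 brain library (n = 10). The liver sample was the end of the left lateral lobe and the brain sample the left hemisphere, so each library mixes all cell types of its piece. Both tissues belonged to the sequencing batch named Run 2, and every library was paired with the other library of its mouse. The lists of genes used here for pathways and cell types hold 671 entries in 37 lists.

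The liver exports most plasma proteins and lipoproteins, makes bile acids, urea and ketone bodies, and clears drugs and other foreign compounds. Most of its mass is hepatocytes, with Kupffer macrophages, sinusoidal endothelium, stellate cells and bile duct cells between them. Brain tissue holds neurons, which signal through vesicle release onto ion channels and receptors, together with astrocytes, myelin-forming oligodendrocytes, microglia and vessels. The neurons draw on glucose and ketone bodies and rely on astrocytes to recycle glutamate. In such bulk samples fewer cells of a type and less RNA per cell cannot be told apart, and this holds for each result below.

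The labelled tissues were first checked with 4 marker genes, given as CPM (read counts scaled to a common library size). Alb, which encodes the main plasma protein albumin, had liver levels in mice 1 to 10 of 69008, 76393, 148692, 141766, 97729, 98097, 96242, 123015, 37277 and 81112 CPM and brain levels of 30.1, 6.71, 97.5, 14.5, 0.557, 2.19, 23.6, 6.64, 1.01 and 3.26 CPM. Liver stood above brain in every mouse, and the brain values themselves spread widely, with mouse 3 highest and mouse 5 lowest. Apoa1, the main protein of high-density lipoprotein, ranged in liver from 10551 to 18132 CPM (median 14436) and in brain from 0.569 to 13.9 CPM (median 1.29), again with mouse 3 as the highest brain. Snap25, a part of the complex that fuses synaptic vesicles, had brain levels of 1605, 1576, 1527, 1419, 1402, 1546, 1542, 1396, 1418 and 1537 CPM and liver levels of 1.35, 0.425, 0.545, 0.520, 0.416, 0.504, 0.660, 3.04, 0.659 and 0.245 CPM. The brains lay close together, while the liver of mouse 8 was the highest liver. Syt1, the calcium sensor of vesicle release, ranged in brain from 931 to 1064 CPM (median 1035) and in liver from 4.94 to 21.7 CPM (median 11.5). The ranges of the tissues were apart for all 4 genes, so no library went against its label. Fitted log2 differences, liver minus brain, were 13.69 (SE 0.98) for Alb, 13.05 (SE 0.69) for Apoa1, −11.03 (SE 0.37) for Snap25 and −6.46 (SE 0.21) for Syt1, with adjusted p of 2.26e-09, 5.75e-11, 1.6e-13 and 1.42e-13. Without mice 1, 3, 4 and 7, whose brains had the most Alb, the differences were 14.97 for Alb and 14.09 for Apoa1.

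**Figure D1:**
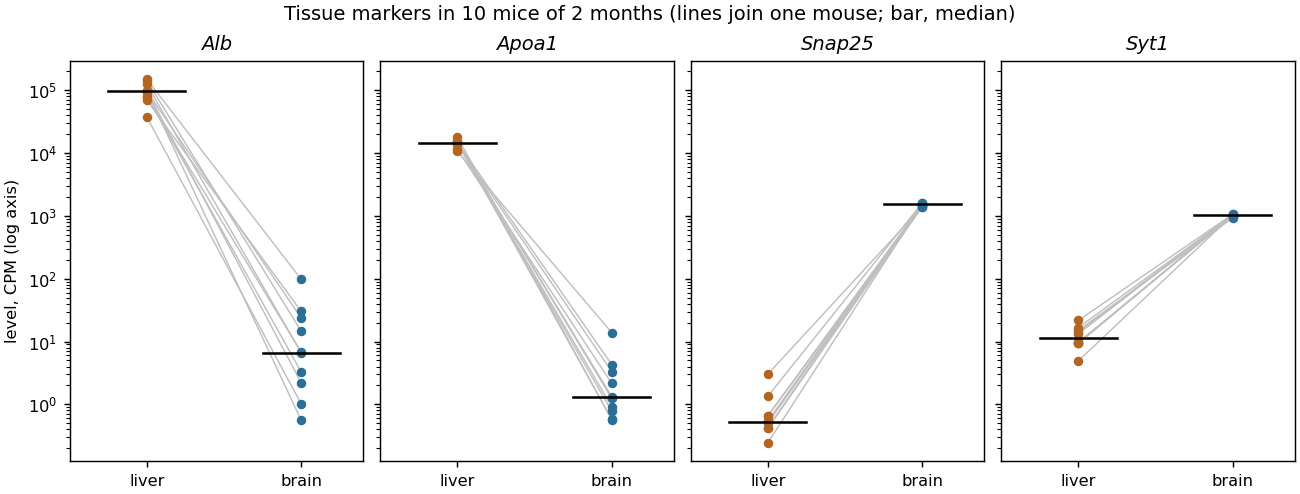
Levels of 4 marker genes in CPM (log axis) in the liver and brain libraries of 10 mice. Grey lines join the libraries of 1 mouse and black bars are medians; the liver and brain points of each gene do not overlap.

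Library totals were 20418489 to 36725529 counts in liver and 26747554 to 38156262 in brain. Liver RNA was concentrated in few genes: the 10 most abundant took 14.6 to 21.6% of liver counts against 3.97 to 4.45% of brain counts, and 13636 to 14620 genes reached 10 counts in a liver library against 17573 to 18456 in a brain library. The liver library of mouse 9 stood apart. In it, genes with under 1000 bases of exon lay at a median of 1.15 log2 units above the median liver library, against −0.11 to 0.10 in the other livers, and it had the lowest Alb. Restricted genes were here those called with a difference of at least 8 log2 units in these same libraries. That choice by itself keeps their share in the other tissue low, so only the contrast between mice is read. The 50 most abundant liver-restricted genes reached 0.00979 to 0.0919% of their liver level in the brain libraries, highest in mice 3, 1, 7 and 4 in that order, and brain-restricted genes reached 0.110 to 0.342% of their brain level in the livers, highest in mouse 8. These traces are the denominators of the largest differences, so values without the libraries concerned are given where they move by over 1.5-fold, except where no trace reads would be left.

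Of 17779 genes tested, 16043 (90.2%) differed between the tissues, 7143 (40.2%) with higher levels in liver and 8900 (50.1%) in brain. A difference of at least 3 log2 units was found for 1917 genes (10.8%) in favour of liver and 4210 (23.7%) in favour of brain. The 10 liver and 10 brain levels did not overlap for 5686 genes (32.0%) with liver on top and 7508 (42.2%) with brain on top. Counts were close without the liver library that stands apart, at 7265 and 9097 without mouse 9. The median difference over all genes was −0.25. The split depends on how libraries are scaled: on total counts the median fell by a further 1.03, 24.9% of the calls were higher in liver instead of 44.5%, and 2430 called genes changed sign. The total-count value is given below where it changes a call or a sign. List counts below stand against 40.2% of all genes higher in liver and 50.1% in brain. On total counts they stand against the 24.9% of calls higher in liver.

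By level per length of exon, the most abundant protein-coding genes with a difference of at least 5 log2 units were, in liver, Alb, Apoa2, Fabp1, Apoa1, Mup3, Serpina3k, Serpina1e and Apoc1. These encode carriers of blood lipids (apolipoproteins A-II, A-I and C-I), the cytosolic fatty acid carrier (Fabp1), a urinary pheromone carrier (Mup3) and serum protease inhibitors (Serpina3k, Serpina1e). Mean levels per kilobase of exon in liver were 41389 CPM for Alb, 14160.2 for Apoa2 and 13943 for Fabp1, against 7.95, 3.61 and 1.23 in brain. The others lay between 7703 CPM per kilobase for Apoc1 and 11434 for Apoa1 in liver, and none exceeded 3.00 in brain. Mup3 and Serpina1e have near-identical copies whose reads the counting could split, so their levels are uncertain. Serpina1e ranged in liver from 1365 to 18577 CPM (median 14686).

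In brain, 7 of the 8 corresponding genes were Cpe, Sparcl1, Nrgn, Ptgds, Eef1a2, Ckb and Ndrg4. They encode the enzyme that trims neuropeptide precursors (Cpe), an astrocyte matrix protein (Sparcl1), a calmodulin-binding protein of dendritic spines (Nrgn), prostaglandin D synthase (Ptgds), the elongation factor form of neurons and muscle (Eef1a2) and brain creatine kinase (Ckb). Mean brain levels per kilobase of exon ran from 312 CPM for Ndrg4 to 552 for Cpe, so that the top of the brain list sat far below the top of the liver list on that scale. Nrgn ranged in brain from 579 to 721 CPM (median 636) and in liver from 0.341 to 1.43 CPM (median 0.553), a difference of −9.91 (SE 0.22). Protein-coding genes past 5 log2 units were more numerous on the brain side, 2282 against 818.

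The sequences before gene starts are shown for 5 genes whose tissues and letters contrast, taken from RefSeq on build GRCm38.p6 as the 250 bases before the start, 5′ to 3′ on the strand of the gene. Capitals mark CG pairs and the motifs TATAAA (the TATA box, searched on the gene strand in the last 50 bases), the HNF1 motif (a site of that liver factor), CAAAGTCCA (a core of HNF4 sites) and TTCAGCACC (the left part of RE1, the site of the repressor REST), the last 3 searched on both strands.
Alb, higher in liver, chr5:90460620-90460869, plus strand, with 2 CG pairs: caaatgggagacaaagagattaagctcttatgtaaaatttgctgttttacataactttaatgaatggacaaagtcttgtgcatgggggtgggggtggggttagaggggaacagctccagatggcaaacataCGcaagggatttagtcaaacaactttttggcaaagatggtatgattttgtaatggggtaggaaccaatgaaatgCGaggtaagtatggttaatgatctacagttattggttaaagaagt
Gc, vitamin D-binding protein, higher in liver, chr5:89457899-89458148, minus strand, with 0 CG pairs and the HNF1 motif beginning 52 bases before the start: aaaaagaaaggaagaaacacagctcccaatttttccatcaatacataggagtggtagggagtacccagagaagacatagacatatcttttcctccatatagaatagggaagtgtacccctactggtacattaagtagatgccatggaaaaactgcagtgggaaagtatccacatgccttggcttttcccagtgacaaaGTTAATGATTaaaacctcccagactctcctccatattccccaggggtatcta
Cyp8b1, a bile acid hydroxylase, higher in liver, chr9:121916306-121916555, minus strand, with 4 CG pairs, the HNF4 core 67 and the TATA box 31 bases before the start: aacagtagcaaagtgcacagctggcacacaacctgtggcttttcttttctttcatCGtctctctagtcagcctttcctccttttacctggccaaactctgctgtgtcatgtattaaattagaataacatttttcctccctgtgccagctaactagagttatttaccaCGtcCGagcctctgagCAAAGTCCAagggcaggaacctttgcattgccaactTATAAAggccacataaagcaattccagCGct
Grm2, a glutamate receptor, higher in brain, chr9:106656110-106656359, minus strand, with 16 CG pairs and the RE1 part 242 bases before the start: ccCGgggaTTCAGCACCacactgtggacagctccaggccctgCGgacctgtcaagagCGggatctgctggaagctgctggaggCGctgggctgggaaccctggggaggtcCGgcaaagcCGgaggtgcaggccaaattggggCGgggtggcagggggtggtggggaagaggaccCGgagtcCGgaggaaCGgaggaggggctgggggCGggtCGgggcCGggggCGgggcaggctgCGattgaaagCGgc
Ckb, higher in brain, chr12:111672339-111672588, minus strand, with 16 CG pairs and a TATA box 28 bases before the start: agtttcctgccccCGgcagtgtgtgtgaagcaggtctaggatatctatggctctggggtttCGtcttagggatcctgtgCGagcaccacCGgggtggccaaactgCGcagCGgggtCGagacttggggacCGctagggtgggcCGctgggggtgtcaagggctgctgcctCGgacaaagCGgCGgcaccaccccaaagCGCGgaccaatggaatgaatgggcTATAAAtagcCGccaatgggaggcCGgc
Grm2 was chosen for display after its letters and values were seen. The 3 liver sequences hold few CG pairs and the 2 brain sequences hold 16 each, and the TATA box occurs on both sides.

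The count of CG pairs was then set against the size of the difference for all genes with a window. Of the 15283 tested protein-coding symbols, 11924 matched a window and 9505 had 1 start. Fewer than 5 CG pairs were found before 77.0% of the 291 genes higher in liver by at least 8 log2 units, with a median of 2 pairs. For the 709 genes higher in liver by 3 to 8 units the share was 28.5% (median 9 pairs), and for the 3596 genes within 1 unit it was 6.73% (median 17). Genes higher in brain lay between these, at 18.2% of 1265 genes with a difference of 3 to 8 (median 13) and 18.3% of 683 genes with at least 8 (median 12). The share was 14.3% over all tested genes with 1 start and 44.4% over all 32851 windows of the table. A brain-restricted gene was thus more often preceded by a CG-rich window than a liver-restricted gene, by these counts and without a test.

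**Figure D2:**
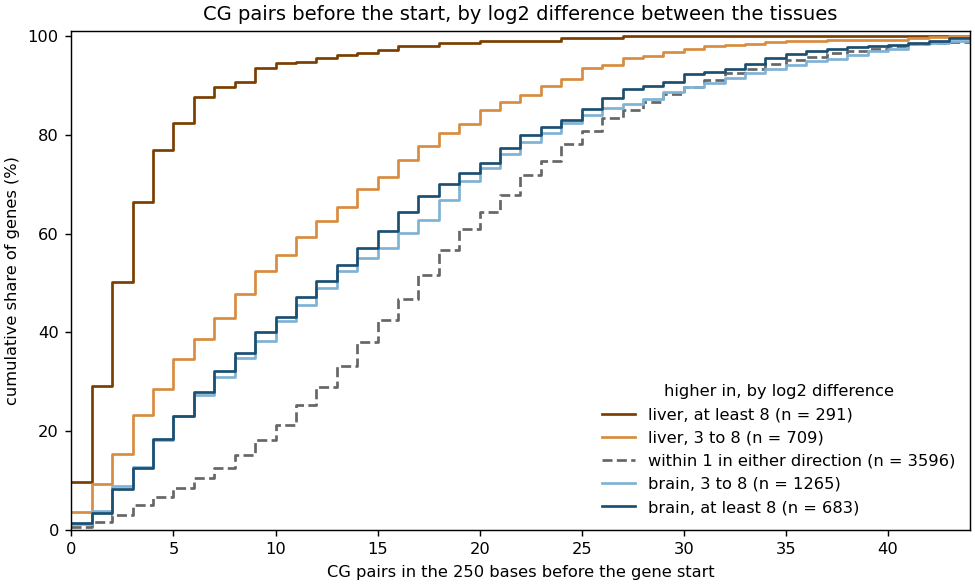
Cumulative share of genes (percent) by the number of CG pairs in the 250 bases before the start, in 5 classes of the liver minus brain difference. The curve of the 291 genes at least 8 log2 units higher in liver reaches 77.0% below 5 pairs, and that of the 3596 genes within 1 unit reaches 6.73%.

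The TATA box was present before 9.97% of the genes at least 8 units higher in liver, 4.65% of those 3 to 8 units higher, 1.08% of the genes within 1 unit and 3.37% of those at least 8 units higher in brain, against 2.63% of all windows. The HNF1 motif was found before 16 (5.50%) of the most liver-restricted genes and 1 (0.146%) of the most brain-restricted, against 0.371% of all windows. The HNF4 core was found before 8 (2.75%) and 1 (0.146%) of them, against 0.384%. Over all tested genes with 1 start the shares were 0.368% for the HNF1 motif and 0.442% for the HNF4 core. The RE1 part was found before 11 (1.61%) of the 683 most brain-restricted genes, against 0.301% of all windows. It was found before 0 of the 291 most liver-restricted genes, which is near that share of all windows. Motif matches in fixed windows are descriptions of letters and not of binding.

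Plasma proteins, which hepatocytes release into blood, were higher in liver in all 20 of the 21 listed genes that could be tested, with a median difference of 12.45, and 13.96 without mice 1, 3, 4 and 7 (the 4 mice whose brains held most liver-gene reads). Serpina3k, a protease inhibitor, led with 14.09 (SE 0.93), or 15.38 without the 4 mice. Gc, which carries vitamin D, ranged in liver from 7410.0 to 10077 CPM (median 8704) and in brain from 0.0960 to 7.79 CPM (median 0.589), a difference of 13.50 (SE 0.76), or 14.87 without the 4 mice. Ahsg, which encodes fetuin-A, ranged in liver from 5615 to 13003 CPM (median 10897) and in brain from 0.0960 to 10.1 CPM (median 0.812) and differed by 13.36 (SE 0.85), or 14.86 without them. None of the 20 had overlapping tissues, against 32.0% of all genes with liver fully above brain.

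Apolipoproteins and their partners split. Of 21 tested genes, 19 were higher in liver and 2 in brain, with a median of 11.47. Apob, the backbone of very-low-density lipoprotein, differed by 13.26 (SE 0.63) and Apoa5, which promotes clearance of triglycerides, by 13.08 (SE 0.60), values that were 14.47 and 14.41 without the 4 mice. Apoc4 ranged in liver from 272 to 1072 CPM (median 298) and had a difference of 12.39 (SE 0.38), which rose to 13.35 without mouse 3 alone and to 13.61 without the 4 mice. The 2 exceptions were Apod, a lipocalin of glia, with 129 to 173 CPM (median 146) in brain and 0 to 0.490 CPM (median 0.147) in liver, and Lrp8, a receptor for Reelin and apolipoprotein E, with 63.7 to 82.0 CPM (median 71.9) in brain and 0.123 to 0.429 CPM (median 0.278) in liver. Their differences were −9.52 (SE 0.25) and −8.05 (SE 0.13), so neither tissue range came near the other.

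Coagulation factors were higher in liver in 21 of 23 tested genes, with a median of 11.63. The 3 fibrinogen chains and plasminogen, the precursor of the clot-dissolving enzyme, led with 13.48 (SE 0.79) for Fgg, 13.44 (SE 0.83) for Fga, 13.34 (SE 0.79) for Fgb and 12.99 (SE 0.61) for Plg. Without the 4 mice they were 15.08, 15.01, 14.89 and 14.29. Brain exceeded liver for F3, tissue factor, which starts clotting where vessels are opened, with 29.6 to 37.5 CPM (median 34.2) against 2.43 to 7.29 CPM (median 3.42), and for Plat, tissue plasminogen activator, with 28.4 to 37.1 CPM (median 33.1) against 0.0659 to 1.85 CPM (median 0.792). Their differences were −3.21 (SE 0.15) and −5.17 (SE 0.21). The enzyme that activates plasminogen and the plasminogen it acts on were thus on opposite sides.

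Complement genes were higher in liver in all 22 tested members of 23, with a median of 9.15. Components of the pore that complement forms in membranes led, with 13.19 (SE 0.52) for C9, 12.67 (SE 0.52) for C8a and 12.28 (SE 0.45) for C8b. C9 rose to 14.01 and C8b to 12.89 without mouse 3, and C9, C8a and C8b to 14.57, 14.03 and 13.24 without the 4 mice. Mbl1, a lectin that starts the pathway, ranged in liver from 307 to 615 CPM (median 360.1) and in brain from 0 to 0.260 CPM (median 0.0485), a difference of 12.47 (SE 0.37), or 14.10 without the 4 mice.

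Bile acid genes were higher in liver in 16 of 17 tested members of 18, with a median of 10.53. Cyp8b1, whose start is shown above and which sets the balance of cholic acid, ranged in liver from 361 to 1244 CPM (median 932) and in brain from 0 to 0.354 CPM (median 0.0388), a difference of 13.47 (SE 0.40). Slc10a1, which takes bile acids up from blood, and Abcb11, which pumps them into bile, differed by 13.03 (SE 0.37) and 12.82 (SE 0.42). Akr1d1, a reductase of the steroid ring, differed by 12.53 (SE 0.29), or 13.35 without mouse 3. Without the 4 mice Cyp8b1, Slc10a1, Abcb11 and Akr1d1 stood at 15.19, 13.98, 14.03 and 14.03. Cyp46a1 alone went to the brain side. It makes 24-hydroxycholesterol, the form in which neurons export cholesterol, and ranged from 151 to 171 CPM (median 162) in brain and from 0.682 to 3.21 CPM (median 1.33) in liver, a difference of −6.84 (SE 0.20).

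Enzymes of cholesterol synthesis had smaller differences. All 19 tested genes were higher in liver, with a median of 2.70, and 18 were called under total counts. Ebp and Sc5d, sterol-modifying enzymes, and Fdps, which makes farnesyl diphosphate, differed by 4.95 (SE 0.10), 4.03 (SE 0.16) and 4.47 (SE 0.18). Tm7sf2 differed by 3.95 (SE 0.12). Ebp ranged in liver from 331 to 554 CPM (median 419.9) and in brain from 13.1 to 14.6 CPM (median 13.8), so the ranges were far apart.

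The liver turns ammonia into urea, while brain passes nitrogen between glutamine and glutamate. Of 13 tested genes, 10 were higher in liver and 2 in brain. Otc, Cps1 and Arg1, enzymes of the cycle, and Nags, which makes the activator of Cps1, differed by 12.85 (SE 0.45), 12.44 (SE 0.48), 12.49 (SE 0.55) and 10.68 (SE 0.18). Otc stood at 13.55 without mouse 3, and Otc, Arg1 and Cps1 at 14.44, 13.51 and 13.21 without the 4 mice. Arg2, the mitochondrial arginase and 1 of the 2 genes higher in brain, was low in both tissues, with 1.31 to 1.98 CPM (median 1.71) in brain and 0.0600 to 0.490 CPM (median 0.290) in liver, a difference of −2.74 (SE 0.24). Glul, glutamine synthetase, ranged from 666 to 1394 CPM (median 1255) in liver and from 916 to 1067 CPM (median 1012) in brain and was not called at 0.18 (SE 0.13) (adjusted p = 0.209). Without mouse 9 it was called higher in liver at 0.27 and under total counts it turned to the brain side at −0.85.

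Amino acid breakdown was higher in liver in all 26 tested genes, 25 of them by at least 3 log2 units, with a median of 11.43. Tat and Hpd, which degrade tyrosine, Bhmt, which remethylates homocysteine, and Mat1a, which makes the methyl donor S-adenosylmethionine, differed by 13.02 (SE 0.57), 13.00 (SE 0.58), 12.85 (SE 0.51) and 12.84 (SE 0.71). Without the 4 mice they stood at 14.27, 14.22, 13.55 and 14.37. Tat spread over mice from 974 to 5048 CPM (median 2520.5) in liver, while Hpd kept within 1789 to 3322 CPM.

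Drug metabolism genes were higher in liver in all 22 tested, 21 of them by at least 3 units, with a median of 10.86. The cytochromes P450 Cyp4a14, Cyp3a11 and Cyp1a2 differed by 13.57 (SE 0.31), 13.51 (SE 0.59) and 13.32 (SE 0.38), and the glucuronosyltransferase Ugt2b1 by 13.26 (SE 0.49), or 13.92 without mouse 3. Without the 4 mice the cytochromes stood at 14.93, 14.49 and 14.30 and Ugt2b1 at 15.16. These families hold close paralogs, so reads could be split between members. Cyp4a14, a fatty acid hydroxylase, ranged from 129 to 1155 CPM (median 520.4) in liver, the widest of the 4.

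Fat oxidation and ketone body genes were mostly higher in liver. Of 18 tested genes, 17 were higher in liver, with a median of 4.06. Acaa1b and Ehhadh, of peroxisomal oxidation, and Acaa2, a mitochondrial thiolase, differed by 10.46 (SE 0.23), 7.70 (SE 0.24) and 6.42 (SE 0.14). Acaa1b ranged in liver from 982 to 2876 CPM (median 1522) and in brain from 0.851 to 1.98 CPM (median 1.07). Oxct1, the enzyme by which tissues use ketone bodies, was the exception, with 233 to 246 CPM (median 240.4) in brain and 6.00 to 11.4 CPM (median 8.11) in liver, a difference of −4.87 (SE 0.10).

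Nucleotide metabolism was mixed. Of 32 tested genes, 24 were higher in liver, 4 in brain and 4 were not called. Of all genes tested 40.2% were higher in liver and 50.1% in brain. Under total counts the split was 16 to 14, where 24.9% of all calls were higher in liver. Genes of breakdown led: Uox, urate oxidase, at 11.45 (SE 0.33), Dpys and Upb1, of pyrimidine breakdown, at 9.97 (SE 0.15) and 9.21 (SE 0.14), and Urah at 9.09 (SE 0.18). Brain exceeded liver for Impdh1, of guanine nucleotide synthesis (−3.10, SE 0.10), for the salvage kinases Dck (−0.94, SE 0.11) and Uck2 (−0.64, SE 0.09), and for Pfas, of purine synthesis (−0.62, SE 0.08). Impdh1 ranged from 42.1 to 48.3 CPM (median 47.0) in brain and from 3.49 to 7.75 CPM (median 5.35) in liver, so the ranges were apart.

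Hormones and hormone receptors of the liver were higher there in 16 of 17 tested genes, with a median of 6.43, and Lepr, the leptin receptor, was not called (−0.00, SE 0.12). Hamp, which encodes the iron hormone hepcidin, ranged in liver from 196 to 1740.1 CPM (median 819) and differed by 12.15 (SE 0.73), or 12.95 without mouse 3 and 14.40 without the 4 mice. Angptl8, an inhibitor of lipoprotein lipase, and Gcgr, the glucagon receptor, differed by 11.33 (SE 0.31) and 11.89 (SE 0.26), with Angptl8 at 11.97 without mouse 3, and they stood at 12.96 and 12.51 without the 4 mice. Angptl8 spread in liver from 16.4 to 217 CPM (median 53.5).

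Transcription factors of the liver were higher there in all 19 tested genes, 18 of them by at least 3 units, with a median of 8.74. Hnf4a, a nuclear receptor at the top of the hepatocyte network, ranged in liver from 653 to 1167 CPM (median 781) and in brain from 0.0804 to 0.826 CPM (median 0.255), a difference of 11.38 (SE 0.37). Foxa3, a factor that opens chromatin, and Nr1i2, the drug receptor PXR, differed by 10.59 (SE 0.21) and 10.74 (SE 0.18). Gata4 had 3 reads in all 10 brains and 5940 in the livers, a scaled ratio of 4764 (95% interval 1630.3 to 23103) by counting error alone. The 3 brain reads were in mice 1, 3 and 7, so no fold is given without them.

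On the brain side, the genes of vesicle release were higher in brain in all 23 tested, 22 of them by at least 3 log2 units, with a median of −9.0. Beside Snap25 the largest differences were those of Sv2b, a vesicle glycoprotein (−10.88, SE 0.26), Rims1, a scaffold of the release site (−10.59, SE 0.26), and Cplx1, which clamps the fusion complex (−10.35, SE 0.39). Sv2b ranged in brain from 162 to 347 CPM (median 321), and its lowest brain was well above the highest liver of 0 to 0.434 CPM. No member of the list overlapped between tissues, against 42.2% of all genes with brain fully above liver.

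**Figure D3:**
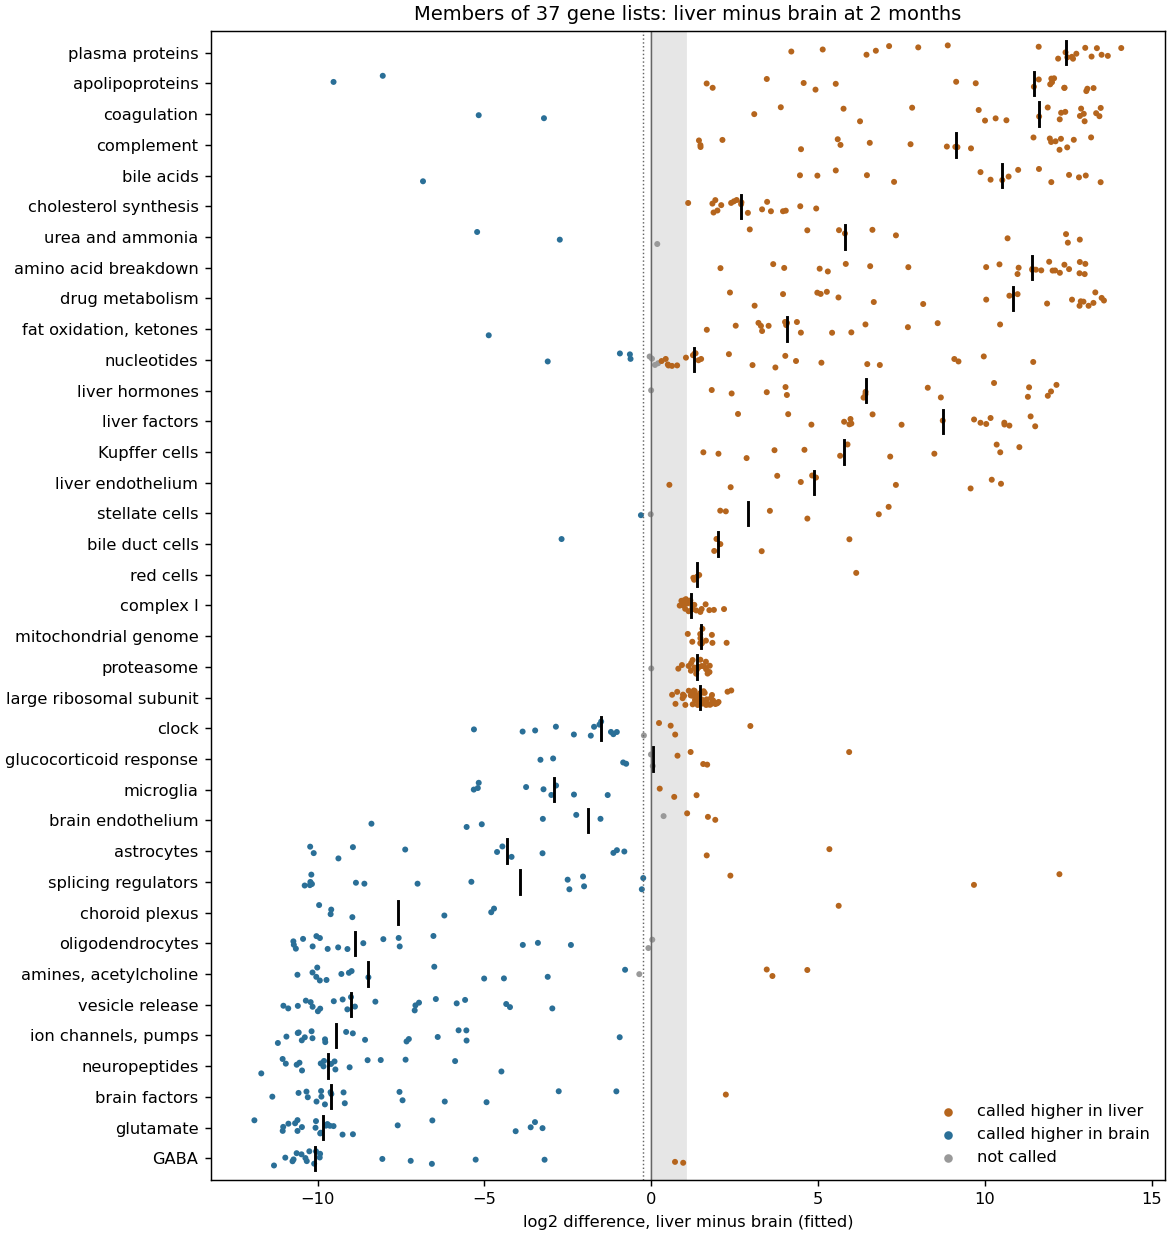
Fitted log2 differences (liver minus brain) of the tested members of 37 gene lists, 1 point per gene, coloured by call. Black bars are list medians, the dotted line is the median of all genes at −0.25, and the grey band spans the shift of that median under total counts; the plasma protein median lies at 12.45 and the GABA median at −10.08.

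Glutamate signalling was higher in brain in all 24 tested genes, each by at least 3 units, with a median of −9.83. Slc17a7 and Slc17a6, which load glutamate into vesicles, differed by −11.05 (SE 0.34) and −10.88 (SE 0.24), the latter from 6 liver reads and at −11.56 without mouse 8 or −10.23 without the 4 mice. Grin1, the shared subunit of NMDA receptors, ranged in brain from 324 to 362 CPM (median 335) and in liver from 0 to 0.564 CPM (median 0.0908), a difference of −11.03 (SE 0.31). Grik2, a kainate receptor subunit, had 2 reads in the 10 livers and 25194 in the brains, a scaled ratio of 5235 (95% interval 1449 to 43228). Both liver reads of Grik2 were in mouse 8, so no fold is given without it.

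GABA signalling was higher in brain in 18 of 20 tested genes, with a median of −10.08. The receptor subunit Gabrb2 ranged in brain from 79.4 to 117 CPM (median 105) and in liver from 0 to 0.245 CPM (median 0.0210), a difference of −10.97 (SE 0.25), or −11.85 without the 4 mice. Gabra5, another subunit, had 3 liver reads against 22796, a scaled ratio of 3158 (95% interval 1081 to 15313), with 2 of the 3 in mouse 8. Its log2 difference of −11.31 became −12.30 without that mouse. Abat, the transaminase that degrades GABA, ranged in liver from 221 to 684 CPM (median 553) and in brain from 259 to 282 CPM (median 267) and was called higher in liver at 0.96 (SE 0.14), but it stood at −0.07 under total counts. Gphn, the anchor of inhibitory receptors that also makes the molybdenum cofactor, was called higher in liver at 0.71 (SE 0.09) and turned to −0.32 under total counts. Their tissue ranges overlapped.

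Amine and acetylcholine genes were higher in brain in 15 of 19 tested members of 21, with a median of −8.48, or −7.02 with the 2 genes without liver reads set to their bounds. Drd1 and Drd2, the main dopamine receptors of the striatum, differed by −10.15 (SE 0.24) and −10.01 (SE 0.24), Drd2 from 4 liver reads and at −10.67 without mouse 8, and Drd1 at −11.23 without the 4 mice. Th, which makes the dopamine precursor, had 1 liver read against 6628 in brain, a scaled ratio of 2754 (95% interval 494 to 108796). Chat, which makes acetylcholine, had 0 reads in all livers and 1863 in brain, which puts it at least 258-fold higher in brain against a floor of 3 reads over the 10 livers. Among the 3 genes higher in liver were Maob (3.46, SE 0.13), which oxidises amines, and Ddc (3.63, SE 0.11), which makes them from amino acids. Ddc ranged in liver from 113 to 247 CPM (median 156) and in brain from 9.67 to 17.2 CPM (median 12.6).

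Chrna4, a nicotinic receptor subunit, was not called at −0.36 (SE 0.74), or −1.19 without mice 1, 3, 4 and 7. Its brain levels were narrow, from 39.6 to 47.3 CPM (median 43.6), while its liver levels ran over 1.53 to 272 CPM (median 30.7). The livers of mice 3, 4, 7 and 8 were above every brain and those of mice 1, 2, 5, 6, 9 and 10 below, so no single direction described the 10 pairs.

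Ion channels and pumps were higher in brain in all 20 tested genes, with a median of −9.46. Cacna1b, a presynaptic calcium channel, ranged in brain from 94.5 to 105 CPM (median 99.4) and in liver from 0 to 0.130 CPM (median 0.0478), a difference of −10.94 (SE 0.21).

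Neuropeptides were higher in brain in all 18 tested members of 19, with a median of −9.70, or −9.55 with Cartpt and Crh at their bounds. Cartpt, a peptide of appetite circuits, had 0 liver reads and 5948 brain reads and was at least 824-fold higher in brain. Pdyn, the precursor of dynorphins, had 2 liver reads, 1 each in mice 8 and 9, and a scaled ratio of 2882 (95% interval 798 to 23802). Its log2 difference of −11.05 became −11.66 without mouse 9. Adcyap1 had 1 and a ratio of 3463 (95% interval 622 to 136799), and Pmch, the precursor of melanin-concentrating hormone, 2 and 2171 (95% interval 601 to 17923). The intervals are wide because the liver reads are so few.

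Brain transcription factors were higher in brain in 18 of 19 tested genes, with a median of −9.59, or −9.22 with Neurod1 at its bound. Tbr1, of deep cortical neurons, and Zic1, of cerebellum and other regions, differed by −10.57 (SE 0.20) and −10.30 (SE 0.19). Neurod1 had 0 liver reads against 2294 and was at least 318-fold higher in brain, and Neurod2 had 2 against 17140, a scaled ratio of 3562 (95% interval 986 to 29409), with the liver reads in mice 1 and 3, so no fold is given without them. The exception was Rest, the repressor that keeps neuronal genes silent in other tissues. It ranged in liver from 14.1 to 29.8 CPM (median 21.7) and in brain from 3.88 to 5.23 CPM (median 4.52), a difference of 2.24 (SE 0.10), with the same direction under total counts (1.21).

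Splicing regulators split by tissue, with 15 of 18 tested members of 19 higher in brain and 3 in liver. Khdrbs2 had 0 liver reads against 2377 and was at least 329-fold higher in brain. The neuronal RNA-binding proteins Elavl4 and Elavl2 differed by −10.23 (SE 0.22) and −10.22 (SE 0.22). Liver was higher for A1cf, a partner in the editing of Apob RNA (12.24, SE 0.22), for Esrp2, of epithelial splicing (9.68, SE 0.14), and for Ptbp1, which represses neuronal exons (2.37, SE 0.11). Ptbp1 ranged in liver from 72.2 to 175 CPM (median 140.2) and in brain from 24.5 to 27.6 CPM (median 26.5), so even this smallest of the 3 did not overlap.

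Energy metabolism uses different gene copies in the tissues, and 20 pairs listed as a liver and a brain form were compared per kilobase of exon. Not every pair holds forms of the same enzyme or a true liver form. Glud1 was paired with Glul, and Ckm, of muscle, with Ckb. Glucose enters hepatocytes through Slc2a2 and neurons through Slc2a3, and Hk1 phosphorylates it in brain. Mean liver levels per kilobase were 47.5 CPM for Slc2a2 and 0.0965 for Slc2a3, and brain levels were 0.0168 and 16.7. For Hk1 they were 0.807 in liver and 32.7 in brain. The differences were 11.51 (SE 0.30) for Slc2a2 (or 12.76 without the 4 mice), −7.41 (SE 0.11) for Slc2a3 and −5.38 (SE 0.15) for Hk1. Each of the 2 carriers was thus the higher of the pair in its own tissue.

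The same crossing was found along glycolysis. Aldoc, an aldolase, differed by −4.19 (SE 0.21), and the pyruvate kinases Pklr and Pkm by 10.99 (SE 0.22) and −4.89 (SE 0.16). Lactate dehydrogenase was carried by Ldha in liver, at 360.1 CPM per kilobase against 2.81 for Ldhb, and by Ldhb in brain, at 234 against 66.6. Glycogen storage followed suit, with Gys2 and Pygl at 10.86 (SE 0.19) and 7.65 (SE 0.16) and Gys1 and Pygb at −1.85 (SE 0.08) and −3.93 (SE 0.14). Fbp1, of glucose synthesis, differed by 12.19 (SE 0.39), or 12.81 without the 4 mice, while Fbp2 was too low in both tissues to be tested.

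Not all pairs crossed. Eno2, the neuronal enolase, differed by −10.18 (SE 0.30), but Eno1 was not called (0.30 (SE 0.18), adjusted p = 0.136); without mouse 9 it was called higher in liver at 0.43, and under total counts it turned to −0.74. Brain was higher for both phosphofructokinases, with Pfkl, the so-called liver form, at −1.26 (SE 0.14) and Pfkp at −5.58 (SE 0.11). Liver was higher for both monocarboxylate carriers, Slc16a1 (1.67, SE 0.12) and Slc16a7 (0.86, SE 0.15), although Slc16a7 stood at −0.17 under total counts. Ckm, of muscle, had 0 reads in the livers and was not tested, so creatine kinase was described by Ckb alone, at −6.31 (SE 0.14).

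Among the other pairs, Gls2, of glutamine breakdown in liver, differed by 4.68 (SE 0.10), the carnitine palmitoyltransferases Cpt1a and Cpt1c by 4.37 (SE 0.19) and −6.69 (SE 0.14), and the methionine adenosyltransferases Mat1a and Mat2a by 12.84 and −0.86 (SE 0.08). Acss2, which makes acetyl-CoA in cytosol and nucleus, differed by 3.74 (SE 0.37) and Acss1, its mitochondrial counterpart, by −5.36 (SE 0.13). Fabp1 and Fabp7, the latter of astrocytes and radial glia, differed by 13.91 (SE 0.71) (or 14.98 without the 4 mice) and −2.40 (SE 0.16). Arg1 and Arg2 crossed as described above, and Glud1, glutamate dehydrogenase, was higher in liver by 2.96 (SE 0.11).

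**Figure D4:**
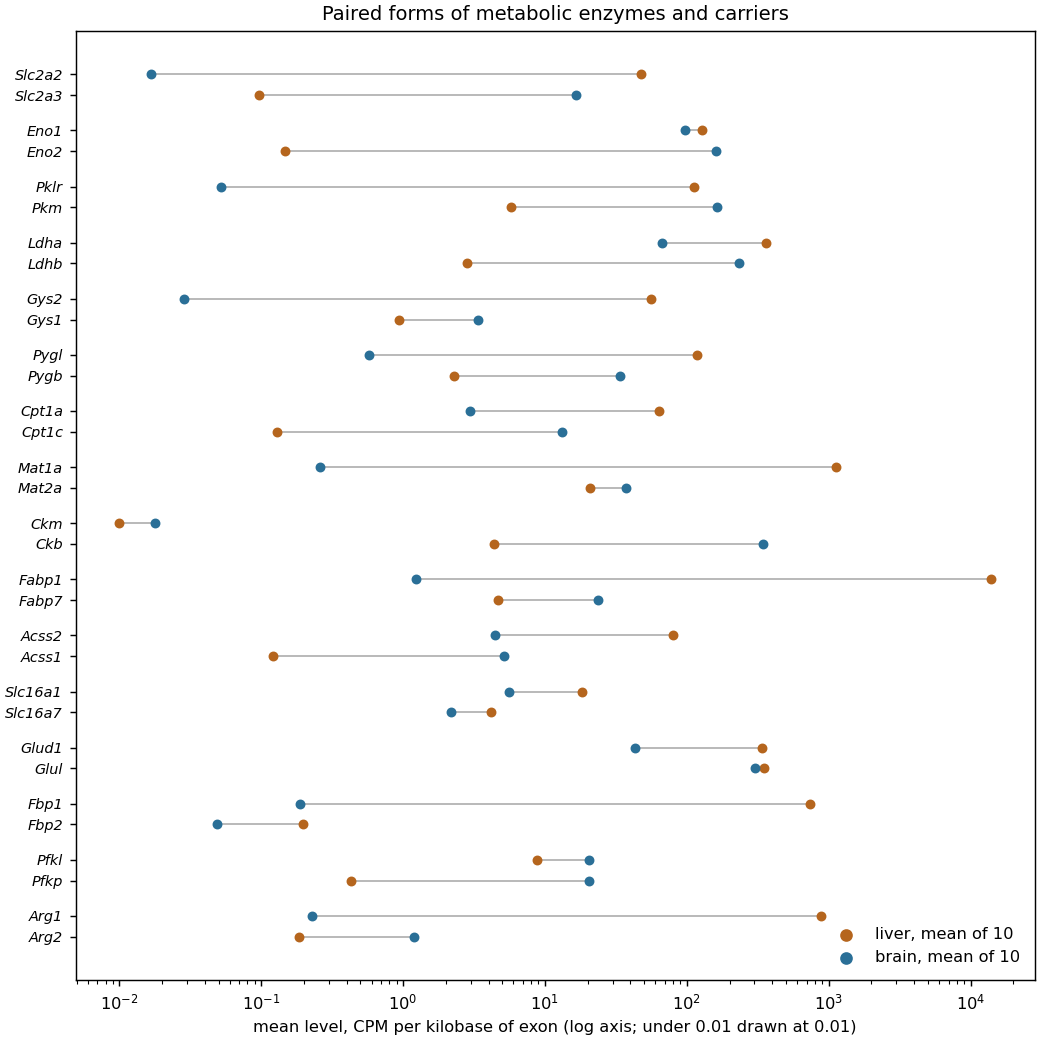
Mean level (n = 10 per tissue) of the members of 16 of the 20 pairs in CPM per kilobase of exon (log axis), with the gene listed as the liver form on the upper line of each pair and that listed as the brain form on the lower. Orange points are liver and blue points brain; the points change places within most pairs, while both Pfkl and Pfkp are higher in brain and both Slc16a1 and Slc16a7 in liver.

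Genes that all cells use differed by far less. Genes listed for respiratory complex I were called higher in liver in 24 of 24, with a median of 1.20, but in 10 under total counts. The list holds Ndufa4, which is assigned to complex IV. Ndufa6, Ndufs6, Ndufb9 and Ndufa4 led with 2.18 (SE 0.10), 1.88 (SE 0.10), 1.74 (SE 0.16) and 1.63 (SE 0.16). Ndufa4 ranged in liver from 357 to 1236 CPM (median 389) with mouse 9 highest, and in brain from 131 to 153 CPM (median 138). The genes of the mitochondrial genome were higher in liver in 13 of 13 (median 1.50) and in 9 under total counts, led by mt-Atp8 (2.26, SE 0.60), mt-Nd3 (1.84, SE 0.29), mt-Nd2 (1.82, SE 0.18) and mt-Nd4l (1.64, SE 0.19). Reads of mt-Atp8 and mt-Nd4l can be lost to overlapping neighbours, and mt-Atp8 was not called under total counts (1.21).

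The 20S and base subunits of the proteasome, which degrades tagged proteins, were higher in liver in 19 of 20 (median 1.38), led by Psmb3 (1.76, SE 0.09), Psma4 (1.75, SE 0.07), Psma3 (1.69, SE 0.09) and Psma1 (1.65, SE 0.08). Psmc5 was the exception and was not called (0.00, SE 0.07). Under total counts 15 were higher in liver and 2 in brain. Proteins of the large ribosomal subunit were higher in liver in 43 of 43 tested members of 44 (median 1.47), and under total counts in 28, with 2 higher in brain. Rplp0 ranged in liver from 583 to 1407 CPM (median 635) and in brain from 121 to 140.1 CPM (median 128), a difference of 2.40 (SE 0.13), and Rpl10, Rpl7a and Rpl18 followed with 2.29 (SE 0.13), 2.02 (SE 0.16) and 1.98 (SE 0.16). Without mouse 9 the ribosomal median was 1.33, with 43 of 43 called. Ribosomal protein genes have many processed copies that can take their reads. How many of these shared genes differ between the tissues therefore depends on the scaling.

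Among the cell types of brain, oligodendrocyte genes were higher in brain in 18 of 20 (median −8.87). Gpr17, of precursors, Cldn11 and Mobp, of myelin, differed by −10.73 (SE 0.22), −10.65 (SE 0.21) and −10.44 (SE 0.32), and Ermn by −10.71 (SE 0.28), with all 5 of its liver reads in mouse 8, so that no fold is given without it. Without the 4 mice Ermn stood at −10.12. Mobp ranged in brain from 484 to 660.3 CPM (median 573). Myrf, the factor that drives myelin genes, and Aspa, which cleaves N-acetylaspartate, were not called (−0.08 (SE 0.10) and 0.03 (SE 0.10)); under total counts all 20 were higher in brain.

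Astrocyte genes were higher in brain in 12 of 14 (median −4.32). Mlc1, Gjb6, S100b and Slc1a3, the glutamate uptake carrier, differed by −10.22 (SE 0.25), −10.12 (SE 0.23), −9.38 (SE 0.27) and −8.94 (SE 0.26), Mlc1 at −10.85 without mouse 8 and S100b at −10.12 without the 4 mice. Liver was higher for Aldh1l1, a folate enzyme used as an astrocyte marker, which ranged from 818 to 2481 CPM (median 1959) in liver and from 40.8 to 47.4 CPM (median 43.5) in brain (5.34, SE 0.20). Ndrg2 was higher in liver too (1.66, SE 0.12).

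Macrophage genes differed in both directions. Of 12 Kupffer cell genes, 12 were higher in liver (median 5.77), led by the lectin Clec4f (11.04, SE 0.30), Cd5l (10.46, SE 0.35), the complement receptor Vsig4 (10.36, SE 0.25) and the scavenger receptor Marco (8.49, SE 0.20). Of 12 microglia genes, 9 were higher in brain (median −2.92), led by Gpr34 (−5.32, SE 0.22), the chemokine receptor Cx3cr1 (−5.20, SE 0.14), Fcrls (−5.17, SE 0.32) and Siglech (−3.75, SE 0.17). The other 3, Aif1, Sall1 and Csf1r, were called higher in liver at 1.36 (SE 0.14), 0.69 (SE 0.13) and 0.26 (SE 0.11). Only Aif1 kept the direction under total counts (0.33), while Sall1 and Csf1r turned to −0.34 and −0.78. Csf1r, the receptor on which both macrophages depend, ranged from 59.9 to 127 CPM (median 94.6) in liver and from 71.7 to 83.2 CPM (median 73.7) in brain, and it was not called without mouse 8 (adjusted p = 0.0613).

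All 10 genes of liver sinusoids were higher in liver (median 4.88), among them Clec4g (10.49, SE 0.26), Dnase1l3 (10.21, SE 0.18), Oit3 (9.58, SE 0.17) and Stab2 (7.34, SE 0.16). Of 10 genes of brain endothelium, 6 were higher in brain, a share near the 50.1% of all genes tested, led by the thyroid hormone carrier Slco1c1 (−8.39, SE 0.19), Ly6c1 (−5.53, SE 0.12), Itm2a (−5.08, SE 0.11) and the efflux pump Abcb1a (−3.25, SE 0.20). Pan-endothelial Cdh5 and Pecam1 were higher in liver at 1.92 (SE 0.15) and 1.08 (SE 0.08), as was Mfsd2a, a lipid carrier of the blood-brain barrier, at 1.70 (SE 0.30). Pecam1 was not called under total counts (0.05). Slco1a4 was not called (0.37, SE 0.22).

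Of 8 stellate cell genes, 6 were higher in liver, led by Lrat, which stores retinol (7.12, SE 0.25), Colec11 (6.82, SE 0.11), Ecm1 (4.68, SE 0.19) and Dcn (3.56, SE 0.11). Pdgfrb, shared with brain pericytes, was called higher in brain at −0.31 (SE 0.13) but not without mouse 9 (−0.18, adjusted p = 0.0529), nor without mouse 8 (−0.32, adjusted p = 0.0518). Reln was not called (−0.01, SE 0.16). Of 6 bile duct genes, 5 were higher in liver, among them Krt7 (3.31, SE 0.29) and Krt19 (2.07, SE 0.27), and Cftr was higher in brain at under 2 CPM in every library (−2.69, SE 0.27). Choroid plexus genes were higher in brain in 7 of 8 (median −7.58, or −6.89 with bounds). Kl and Otx2 stood out, with Kl at −9.59 (SE 0.22) and Otx2 at 1 liver read, in mouse 8, against 2101, a scaled ratio of 873 (95% interval 157 to 34487), and Kcnj13 and Kcne2 had 0 liver reads and were at least 241-fold and 191-fold higher in brain. The water channel Aqp1, which bile ducts also carry, was higher in liver (5.62, SE 0.13).

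Red cell genes were higher in liver in 5 of 5 with a median of 1.37 and in 1 under total counts. Alas2, the heme enzyme of red cell precursors, ranged from 111 to 231 CPM (median 196) in liver and from 1.81 to 5.95 CPM (median 2.23) in brain (6.15, SE 0.16). Hbb-bs, Hbb-bt and Hba-a2, globin genes that each have a near-identical copy, differed by 1.44 (SE 0.21), 1.37 (SE 0.21) and 1.29 (SE 0.21). The liver of mouse 9 was highest for Hbb-bs at 431 CPM. None of these 3 was called under total counts.

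Genes of the daily clock differed in both directions, in tissue of mice that were killed in the morning. Of 17 genes, 12 were higher in brain and 4 in liver, against 50.1% and 40.2% of all genes tested. Under total counts they numbered 15 and 1, where 24.9% of all calls were higher in liver. Bhlhe41, Dbp and Per3, repressors and outputs of the clock, differed by −5.31 (SE 0.17), −3.86 (SE 0.20) and −3.48 (SE 0.11). Dbp ranged from 32.9 to 52.1 CPM (median 40.1) in brain and from 1.20 to 5.04 CPM (median 2.75) in liver, so the ranges were apart. Nfil3, which acts against Dbp on the same sites, was higher in liver (2.97, SE 0.15). Cry1, Arntl and Clock were called higher in liver at 0.72 (SE 0.15), 0.58 (SE 0.10) and 0.23 (SE 0.07) and turned to −0.31, −0.45 and −0.80 under total counts.

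Glucocorticoid-responsive genes were mixed, with 5 of 11 higher in liver and 4 in brain, shares near the 40.2% and 50.1% of all genes tested, and 2 and 6 under total counts. Errfi1, a brake on growth factor receptors, was higher in liver (5.94, SE 0.15), as was Tsc22d3, a mediator of glucocorticoid action (1.68, SE 0.18). The metallothioneins Mt1 and Mt2, which bind zinc, were higher in brain (−2.94 (SE 0.28) and −3.32 (SE 0.43)), as were Sgk1 (−0.84, SE 0.11) and Ddit4 (−0.75, SE 0.21). Mt2 ranged from 43.1 to 72.2 CPM (median 50.6) in brain and from 1.38 to 55.1 CPM (median 3.93) in liver. Ddit4 was not called without the mouse block (adjusted p = 0.0797).

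Because both tissues come from the same mice, the levels of clock and glucocorticoid genes were also correlated over the 10 mice. Of 28 genes, 23 had a positive Pearson r, 12 of 17 in the clock list (median 0.109) and 11 of 11 in the glucocorticoid list (median 0.644). The share of positive r over all genes was not computed, so these counts have no background. Without the 2 mice farthest from the liver median of each gene, r was lower for every glucocorticoid gene. It went from 0.668 to 0.397 for Sgk1 and from 0.263 to 0.0498 for Klf9. Leaving out the most extreme mice narrows the range and by itself tends to lower r, so these falls are not read further. Fkbp5, a chaperone induced by glucocorticoids, had r = 0.864 (permutation p = 0.00106, adjusted p = 0.0297) and Spearman rho = 0.6 (permutation p = 0.0742, adjusted p = 0.346). Without mice 6 and 10, which were farthest from the liver median, r was 0.594. For the same reason this value cannot show whether the relation rests on those mice. Mouse 10 was highest for Fkbp5 in both tissues, with 165 CPM in liver and 41.3 in brain. Ddit4 and Tsc22d3 had r = 0.753 and r = 0.732 (permutation p = 0.0130 and 0.0147, adjusted p = 0.137 for both) and rho = 0.673 and 0.782 (permutation p = 0.0383 and 0.0105, adjusted p = 0.242 for both). Without the 2 mice farthest from the liver median they had r = 0.602 and r = 0.634. Fkbp5 was thus the 1 gene of 28 past the threshold, by Pearson r only. All 10 pairs belong to 1 sequencing batch. The mice were killed over several mornings, and the labels do not give the morning of each mouse, so no value within mornings can be given and a part of the day in these correlations was not tested.

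Mice differed more in liver than in brain. Over the 5313 genes well expressed in both tissues (mean of at least 4 log2 CPM), the median SD of log2 CPM was 0.246 in liver and 0.0677 in brain, and liver had the larger SD for 5262 genes (99.0%). Without mouse 9 the values were 0.151, 0.0683 and 5039 genes (94.8%). The genes with the largest liver spread were Chrna4, the acute phase proteins Saa1 and Saa2, and the pheromone carriers Mup1 and Mup15. Saa1 ranged in liver from 36.3 to 3687 CPM (median 109), with mice 10, 2 and 9 far above the rest, and in brain from 0.161 to 0.940 CPM (median 0.579). Mup1 ranged from 5.38 to 246 CPM (median 99.6) and Mup15 from 2.60 to 740.1 CPM (median 98.2), both lowest in mouse 4 and highest in mouse 9, and Saa2 from 13.6 to 2239.7 CPM (median 45.0). The Saa and Mup genes have close copies.

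In brain the widest spreads were those of Lars2, Bc1, Cdhr1, Fos and Arc. Fos and Arc, which neurons switch on with activity, ranged in brain from 12.6 to 47.5 CPM (median 20.9) and from 70.1 to 265 CPM (median 159), both highest in mouse 8 and lowest in mouse 2. Cdhr1, of photoreceptors and olfactory bulb, ranged from 10.7 to 48.7 CPM (median 16.0), and Bc1, a noncoding RNA of dendrites, from 37.3 to 235 CPM (median 186). Lars2, a mitochondrial tRNA synthetase, ranged in brain from 42.7 to 284 CPM (median 123) and was called higher in liver at 0.72 with an adjusted p of 0.0453, a call that was lost without mouse 3 (0.48), without mouse 8 (0.64), without the 4 mice and in the DESeq2 and no-filter fits, and that turned to −0.31 under total counts.

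The liver minus brain difference was then set against that of 10 male mice of 24 months of the same strain and batch, again with 1 liver and 1 brain library each. Of 19197 genes tested, 2370 (12.3%) had a difference that depended on age, with liver gaining on brain at 24 months for 1495 (7.79%) and losing for 875 (4.56%). The split depended on the fit: gains and losses numbered 1898 and 470 under total counts, 1807 and 1381 by the DESeq2 Wald test, and 2509 and 1169 without the mouse block. The gains of largest size were those of Slc22a26, an organic anion carrier, at 7.09 (SE 1.58), Gldn at 6.05 (SE 0.80), Cyp2b9 at 5.61 (SE 1.38) and Eomes, a factor of killer lymphocytes, at 5.37 (SE 0.78). Gldn, known from nodes of Ranvier, ranged in liver from 0 to 0.0815 CPM (median 0.0524) at 2 months and from 0.0402 to 8.75 CPM (median 6.25) at 24 months, and in brain from 1.07 to 1.93 CPM (median 1.53) and from 1.42 to 2.64 CPM (median 2.02). The brain levels overlapped between ages, and 9 of 10 old livers were above every young liver.

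The losses of largest size were those of Mup16 (−7.29, SE 1.32), Mup11 (−7.24, SE 1.00), Mup7 (−7.20, SE 1.37) and Mup9 (−6.53, SE 1.05), carriers of urinary pheromones with near-identical copies. Mup7 ranged in liver from 478 to 13662 CPM (median 6948) at 2 months and from 1.11 to 1955 CPM (median 59.6) at 24 months, with overlap of the ages, while all brains of both ages were at or under 2.43 CPM. Mup11 ranged in liver from 35.9 to 907 CPM (median 477) and from 0.139 to 19.0 CPM (median 3.59), with no overlap. The terms of Slc22a26, Cyp2b9, Mup16 and Mup9 were not called without the mouse block (adjusted p = 0.346, 0.440, 0.153 and 0.165).

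Ntrk2, the receptor of brain-derived neurotrophic factor, had the smallest adjusted p among these genes and was added after its values were seen. It ranged in liver from 0.504 to 1.50 CPM (median 0.857) at 2 months and from 8.50 to 36.6 CPM (median 19.1) at 24 months, with no overlap. In brain it ranged from 436 to 530.2 CPM (median 505) and from 493 to 572 CPM (median 524), a level far above that of both livers. Its term was 4.27 (SE 0.27) (adjusted p = 2.12e-09), so the liver minus brain gap shrank in size with the liver level rising.

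**Figure D5:**
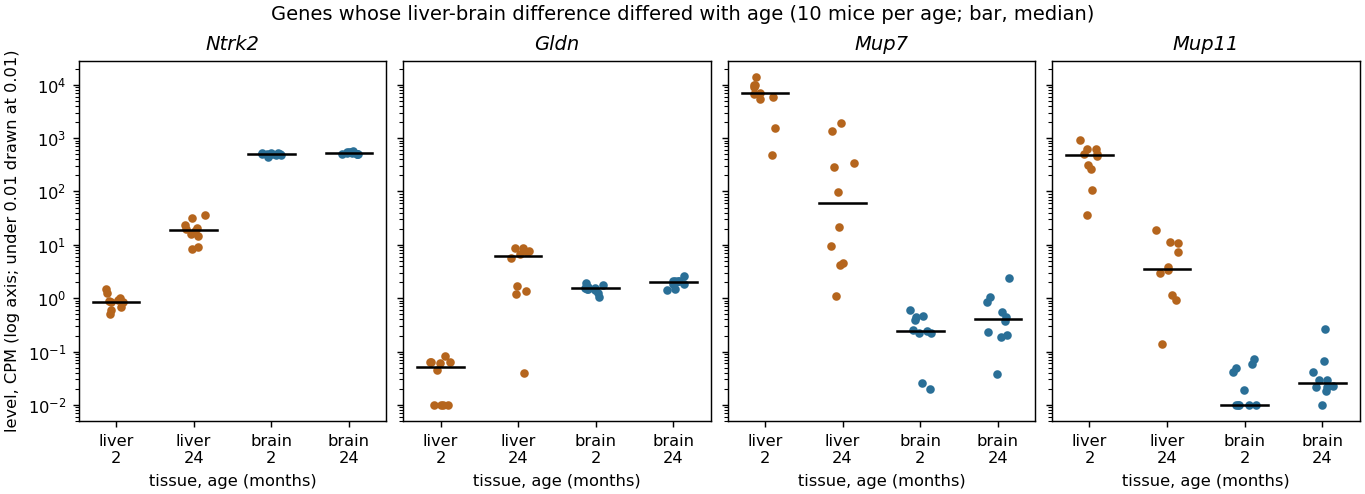
Levels of 4 genes in CPM (log axis) in liver and brain of 10 mice of 2 months and 10 mice of 24 months, with black bars for medians and values under 0.01 drawn at 0.01. The liver medians of Ntrk2 and Gldn rose to 19.1 and 6.25 CPM, those of Mup7 and Mup11 fell to 59.6 and 3.59, and the brain points of each gene overlap between ages.

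By list, the terms were few in most groups. Liver lost against brain at 24 months for 15 of 24 genes of the complex I list (median term −0.49), against 4.56% of all genes, and for 15 without mouse 9. Under total counts 6 of the 24 did, against 2.45% of all genes. Fat oxidation and ketone genes lost in 6 of 18 and gained in 1. Liver gained against brain for 8 of 20 ion channels and pumps and 5 of 12 microglia genes, against 7.79% of all genes. Gains were more common among genes far higher in brain at 2 months, as all the ion channels were. Of 4210 genes higher in brain by at least 3 log2 units, 614 had gains and 21 losses. Of 1917 genes higher in liver by as much, 37 had gains and 291 losses. Both groups were chosen by their difference in the same 2-month libraries that enter the age term. That choice by itself favours gains in the first group and losses in the second, so these splits are not read as an effect of age. Clock genes split into 4 gains and 4 losses, and no cholesterol synthesis, neuropeptide, splicing, choroid plexus or ribosomal gene of the lists had a called term. Without mouse 9, ion channels had 7 gains and clock genes 3 gains and 5 losses. Each term combines the changes of both tissues.

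Colon libraries of the 2-month mice gave another tissue as a reference of level only, since they were sequenced in another batch (Run 3) with longer reads, so that tissue and batch cannot be told apart. On total counts, colon reached at least 1 CPM for 66.6% of the 1917 genes far higher in liver and 48.5% of the 4210 far higher in brain, and exceeded the tissue itself for 25.4% and 7.03%. Alb lay at 0.192 to 0.969 CPM in colon (median 0.558), against a brain median of 9.47 on the same scale. Colon had Acss1 at a median of 149 CPM, above both other tissues, and Fbp2, untested above, at a median of 115 CPM. Mat1a was at a median of 0 and Mat2a at 573 CPM in colon, against 2778 and 62.0 in liver and 0.538 and 241 in brain.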

How the data were processed

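RNA of the liver and brain of 10 mice of 2 months was sequenced as paired-end stranded poly(A) libraries with reads of 75 bases. The deposited values are counts of reads per gene, which the authors made, per the labels, with cutadapt 1.12, HISAT2 2.1.0, SAMtools 1.9 and HTSeq 0.6.1 as named in the submitters' processing notes together with the builds GRCm38.p6 and mm10. No test between tissues was stated. Of the columns with values per sample, 0 matched no sample of the labels, and those of other ages and of old colon were not analysed here. Gene names, positions and exon lengths came from GENCODE M21, which matched 55230 of 55471 identifiers.

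Genes were kept by filterByExpr of edgeR (minimum count of 10, total of 15) and fitted with TMM scaling and the quasi-likelihood F-test of edgeR 4.0.16 with mouse as a block and tissue as the tested term. P-values were adjusted by Benjamini and Hochberg over all genes tested, and a gene was called at an adjusted p of at most 0.05. SE is an approximate standard error, the size of the log2 difference divided by the square root of its F statistic. The age term was the interaction of tissue and age over 40 libraries of 20 mice. Correlations used log2 CPM, two-sided permutation tests with 100000 resamples and adjustment over 28 genes. The tests were checked on simulated data with 200 changed genes. Tissues were paired because the labels give both libraries the same mouse. The deviations of the libraries of 1 mouse correlated at r of −0.163 to 0.175 (median 0.0904) over 8968 genes. The brain of the same mouse gave the highest r for 5 of the 10 livers. For the livers of mice 1 and 9 the brain of another mouse reached 0.362 and 0.278, so the pairing rests on the labels. P-values measure the spread between these mice, and intervals (exact, 95%) and floors (3 counts) cover counting error only. Genes with 1 to 3 reads in a tissue are given as scaled ratios.

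The comparison, gene lists, gene pairs and motifs were chosen with earlier results of these data known. Named were the 4 markers, the 8 most abundant protein-coding genes per direction at a difference of at least 5 log2 units, the 4 members of each list with the largest difference and members called against their list, all members of the pairs, the 4 largest age terms per direction, the 3 correlations of smallest p and the 5 genes of largest SD per tissue. Some genes of the rule and 4 of the gene pairs are not reported here. Outside this rule, Ntrk2, Grm2, Crh, Lepr, Psmc5, Myrf, Aspa, Slco1a4 and Reln were chosen after their values were seen. Alternatives were DESeq2 1.42.0 (size factors and Wald test), total counts, TMM without the 100 most abundant genes of each tissue, no filter, no block, and, chosen after seeing the data, fits without mice 3, 8 or 9 or without mice 1, 3, 4 and 7, and the age fit without mouse 9.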

Additional observations from a re-analysis of the deposited data

Results flagged for a closer look

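In 39 of 240 named genes the log2 difference between liver and brain of 1 mouse lay far from those of the other 9 mice, beyond the 95% critical value of Dixon's test, where chance flags about 1 in 20 groups. Mouse 9, whose liver library stood apart in short transcripts, accounts for 28 of them. It had the highest difference for Aif1 (2.48), Hbb-bs (3.60), Hbb-bt (3.29), Ndufa4 (3.16), Ndufb9 (3.34), Psma3 (2.34), Psma4 (2.15), Psmb3 (2.41), Rpl10 (3.28), Rpl18 (3.49), Rpl7a (3.54) and Rplp0 (3.47). It had the lowest difference for Abat (−0.30), Arc (−11.19), Cdh5 (0.39), Cpt1a (2.84), Gphn (−0.057), Hk1 (−6.72), Myrf (−0.92), Pdgfrb (−1.54), Pecam1 (0.50), Pfkl (−2.59), Pfkp (−6.29), Plat (−8.15), Ptbp1 (1.41), Reln (−1.72), Slc16a1 (0.69) and Sparcl1 (−8.84). The highest pair was that of mouse 1 for Gabrb2 (−8.02). The lowest pair was that of mouse 3 for Apoc4 (9.38) and Arg1 (9.23). The lowest pair was that of mouse 4 for Slc1a3 (−11.63). The highest pair was that of mouse 5 for Adcyap1 (−7.46) and F3 (−2.04). The lowest pair was that of mouse 7 for Itm2a (−5.85). The highest pair was that of mouse 8 for Ermn (−7.57), Grik2 (−8.60) and Slc17a7 (−8.89). The lowest pair was that of mouse 10 for Ptgds (−8.36).

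The difference between liver and brain depended on age, by the interaction term of tissue and age, for 61 named genes. Of all genes tested, 12.3% had such a term. Of the 61 genes, 9 were named for their age terms, so their calls follow from that choice. Besides the 9 genes described with the comparison of ages, liver gained on brain at 24 months for Abcb1a (1.41), Acss1 (1.97), Arc (1.72), Arg2 (2.37), Bhlhe41 (2.41), Cacna1b (3.20), Cpt1c (0.86), Csf1r (1.16), Cx3cr1 (2.26), Dbp (2.98), Dcn (0.67), Fabp7 (1.69), Fos (1.61), Gpr17 (2.31), Hk1 (0.83), Impdh1 (1.15), Itm2a (0.88), Mt1 (2.98), Mt2 (3.37), Nrgn (1.43), Oxct1 (1.29), Pdgfrb (0.58), Per3 (1.78), Pfkp (1.18), Pkm (1.37), Plat (1.58), Slc16a7 (0.78), Slc2a3 (2.09) and Sparcl1 (0.78). Liver lost against brain for Acaa1b (−1.76), Alas2 (−2.0), Arntl (−1.32), Aspa (−0.67), Clock (−0.77), Cry1 (−0.99), Cyp8b1 (−2.39), Ddc (−1.36), Dnase1l3 (−1.11), Ehhadh (−1.64), Fabp1 (−2.19), Mup1 (−4.49), Mup3 (−3.70), Ndufa6 (−0.63), Ndufb9 (−0.73), Ndufs6 (−0.47), Nfil3 (−0.97), Psmb3 (−0.35), Ptgds (−0.98), Pygl (−1.49), Serpina1e (−3.30), Serpina3k (−2.24) and Tsc22d3 (−0.99). The 9 described terms were Slc22a26 (7.09), Gldn (6.05), Cyp2b9 (5.61), Eomes (5.37), Mup16 (−7.29), Mup11 (−7.24), Mup7 (−7.20), Mup9 (−6.53) and Ntrk2 (4.27).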

How the results depend on the processing

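The number of genes higher in liver was 4070 under total counts, and the number higher in brain by at least 3 log2 units was 6750 with no filter, where more genes were tested. Over the fits that left out mice, 7014 to 7265 genes were higher in liver and 8663 to 9097 in brain. Under total counts 12 of 238 named differences changed sign: Abat (−0.074), Gphn (−0.32), Sall1 (−0.34), Csf1r (−0.78), Cry1 (−0.31), Arntl (−0.45), Clock (−0.80), Eno1 (−0.74), Slc16a7 (−0.17), Glul (−0.85), Fkbp5 (−0.24) and Lars2 (−0.31). Another 5 lost their call there. TMM without the most abundant genes changed no call of the 238. Without the replicate block 16174 genes differed, Chrna4 stood at 0.95, Alb at 12.35, Eno1 gained a call and Pdgfrb and Ddit4 lost theirs. Genes with an age term numbered 3678 without the block, 2509 of them gains of liver on brain at 24 months, and 4 of 9 named terms lost their call. Losses of liver against brain numbered 470 under total counts, 576 with no filter and 1381 by the DESeq2 Wald test. The age terms numbered 2886 without mouse 3 of the old group and 2416 without mouse 9 of the young. The cause of these changes was not tested. Of 28 correlations, 1 passed under each of the 3 scalings.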
